A study of Homo sapiens with 6 samples.

Results

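Antisense genes of NCI-N87 cells, a line derived from a human gastric carcinoma, were examined together with the protein-coding genes on the opposite DNA strand. The deposited table gave 5583 genes the biotype antisense among 58735 genes in all. Those with a mean of at least 2 FPKM (fragments per kilobase of gene length, scaled to library depth) over the 6 libraries were kept, which left 242 antisense genes. SCAMP1-AS1 was to be left out by name, and the table lists it under another biotype. The genes were thus chosen by their FPKM, and these levels are given below as a description without a test.

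RNA had been sequenced from 3 libraries of cells that carried a negative control lentivirus (labelled shNC, here shCtrl) and 3 libraries of cells with an shRNA lentivirus against SCAMP1 (labelled shScamp1, here shS1#1). SCAMP1 encodes a secretory carrier membrane protein of the endosomal recycling and secretory routes. Both groups were exposed to lentivirus and polybrene for 24 h, selected with puromycin at 2 µg/ml as stable populations, and harvested at about 80% confluence. For the shCtrl cells the paper names the empty vector. The table thus holds 1 cell line and 1 shRNA sequence. An effect of SCAMP1 loss cannot be told apart from an effect of that shRNA on other transcripts, or of carrying any shRNA. The labels call the libraries of a group biological replicates, but no source states that they came from separate infections, so the p-values measure the spread between these libraries.

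An antisense gene is transcribed from the strand opposite to another gene. Some antisense transcripts start beside the promoter of the partner and run away from it (head-to-head), others run into the 3′ end of the partner (tail-to-tail), and others lie wholly within it, often in an intron. Most are long non-coding RNAs, and individual ones are known to act on chromatin, on the RNA of the partner or as host transcripts of small nucleolar RNAs, while many have no known role. Few of the 242 genes have a described function, so that most can be introduced only by their position.

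Depth was similar between the groups. Reads on genes numbered between 15064905 and 15988700 per library for shCtrl and between 14311769 and 14667628 for shS1#1. The knockdown target SCAMP1 had 12.6, 12.1 and 11.5 FPKM in the shCtrl libraries, compared with 1.70, 1.37 and 1.99 FPKM in those of shS1#1 (log2 fold change −2.78, limma adjusted p = 0.000248). Of the epithelial markers of this line, EPCAM lay between 141 and 156 FPKM and ERBB2 between 1201 and 1515 FPKM, and neither was called. KRT8, KRT18, KRT19 and CDH1, which are also epithelial markers, were higher in shS1#1 (log2 fold changes 0.97, 1.19, 0.75 and 0.45). VIM, a mesenchymal marker, did not exceed 0.226 FPKM and COL1A1, a collagen of fibroblasts, lay between 0.476 and 0.773 FPKM, while COL1A2 was listed at 0 in every library. One library stood apart from its group, shS1#1 replicate 2, in which mitochondrial genes took 9.21% of the reads against 6.09% to 6.78% in the other 5. For the antisense genes and partners described below, calls that change without this library are given with both values.

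How the reads were assigned to genes bears on every value of an antisense gene. Among the 710 genes whose exon bases all lie inside exons of genes on the opposite strand, 0 had a read in any library, and 316 of these were antisense genes. Counting therefore did not use strand, and reads that fell on exon bases shared by both strands were given to neither gene. Where an antisense exon lies in an intron of the partner, reads from unspliced partner RNA and reads from the antisense RNA cannot be told apart. Of the 242 genes, 143 share at least 1 exon base with an exon on the opposite strand, and 16 share most of their bases in this way. FPKM divides by the whole length, so the level of such a gene is understated in proportion to the bases that could not be counted.

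The 242 antisense genes lie on 23 chromosomes, with 27 on chromosome 1 and 24 on chromosome 17. At least 1 protein-coding gene overlaps 201 of them on the other strand, while 41 have no such overlap, and 21 of these 41 have a protein-coding start on the other strand within 1 kb. The overlaps make 243 pairs. In 205 pairs the partner also reached the mean of 0.5 FPKM needed for a test, which gave 188 antisense genes and 199 partners. The antisense gene lies inside the partner in 92 of these pairs, head-to-head in 59 and tail-to-tail in 40, and the partner lies inside the antisense gene in 14. Since 13 antisense genes have more than 1 tested partner and 6 partners belong to more than 1 antisense gene, the pairs are not independent of each other.

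**Figure D1:**
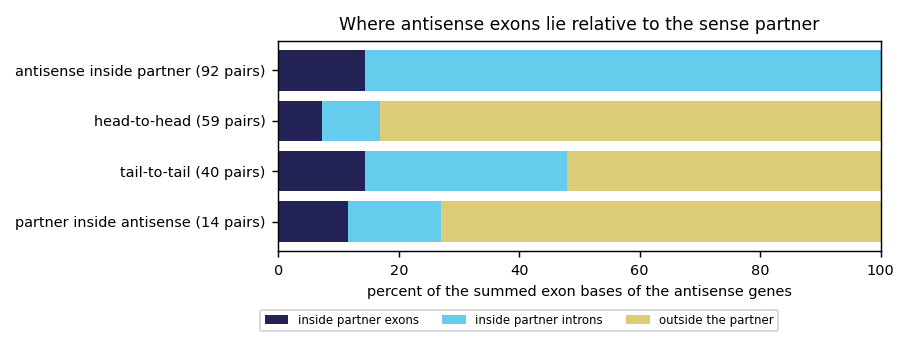
Share of the summed exon bases of the antisense genes (horizontal axis, percent) that lie inside exons of the sense partner, inside its introns or outside it, for each arrangement of the 205 tested pairs. Genes inside the partner have 85.7% of their exon bases in partner introns, while head-to-head genes have 83.1% of theirs outside the partner.

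The plot of exon positions shows where the reads of an antisense gene can be its own. In the 92 pairs with the antisense gene inside the partner, 14.3% of the exon bases lie in partner exons, which were not counted, and 85.7% lie in partner introns. Head-to-head genes lie mostly beyond the partner, with 9.62% of bases in its introns. Tail-to-tail genes are intermediate, with 33.6% in introns and 52.0% outside.

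Of the antisense genes that start beside a coding gene, 3 that were higher in shS1#1 cells (described further on) have a divergent RefSeq promoter. There the protein-coding gene on the other strand starts within 250 bases before the antisense start and runs away from it. These windows are printed because a single short stretch of DNA lies between the RefSeq starts of both members of a pair. Each runs 5′ to 3′ on the strand of the antisense gene, from 250 bases before to 50 after its RefSeq start (GRCh38.p14), and the capitals mark the bases between the antisense start and the coding start. ELF3-AS1 and ELF3 share chr1:202010304-202010603 (minus strand), MRPS30-DT and MRPS30 share chr5:44808744-44809043 (minus strand), and NKILA and PMEPA1 share chr20:57709933-57710232 (plus strand).
ELF3-AS1: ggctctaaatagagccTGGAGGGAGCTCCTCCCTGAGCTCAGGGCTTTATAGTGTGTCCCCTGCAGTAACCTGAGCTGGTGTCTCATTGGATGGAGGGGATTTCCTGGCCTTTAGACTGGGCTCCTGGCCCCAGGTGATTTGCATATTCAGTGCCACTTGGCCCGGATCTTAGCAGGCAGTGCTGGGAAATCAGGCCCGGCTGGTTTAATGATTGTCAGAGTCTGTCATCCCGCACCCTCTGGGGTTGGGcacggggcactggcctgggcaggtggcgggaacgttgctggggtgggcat
MRPS30-DT: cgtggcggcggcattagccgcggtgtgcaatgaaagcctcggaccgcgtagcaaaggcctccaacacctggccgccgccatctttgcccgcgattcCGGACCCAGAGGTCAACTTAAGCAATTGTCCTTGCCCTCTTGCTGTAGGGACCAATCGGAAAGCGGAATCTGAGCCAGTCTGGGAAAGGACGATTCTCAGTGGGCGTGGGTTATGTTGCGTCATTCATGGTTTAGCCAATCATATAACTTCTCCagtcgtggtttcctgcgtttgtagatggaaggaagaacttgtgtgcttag
NKILA: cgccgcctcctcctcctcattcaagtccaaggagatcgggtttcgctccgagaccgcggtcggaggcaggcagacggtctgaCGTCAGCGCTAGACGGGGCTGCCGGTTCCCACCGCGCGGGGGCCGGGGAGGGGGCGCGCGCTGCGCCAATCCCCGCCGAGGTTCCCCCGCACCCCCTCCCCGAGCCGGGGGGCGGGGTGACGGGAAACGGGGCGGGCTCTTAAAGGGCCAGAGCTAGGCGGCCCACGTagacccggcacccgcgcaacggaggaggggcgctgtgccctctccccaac

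The RefSeq starts are 234 bases apart for ELF3-AS1 and ELF3, 154 for MRPS30-DT and MRPS30 and 168 for NKILA and PMEPA1. In the gene coordinates that go with the FPKM, ELF3 starts at 202007945 and PMEPA1 at 57711536, both outside the printed windows. The windows differ in composition, with 6, 20 and 37 CpG dinucleotides in that order. The ELF3-AS1 window holds 1 TATAAA and 1 CCAAT on either strand, the MRPS30-DT window 2 CCAAT, and the NKILA window 2 GGGCGG and 1 CCAAT. Over all 35116 RefSeq windows of this length, TATAAA occurred in 11.5%, CCAAT in 34.6% and GGGCGG in 45.0%, and the median window held 14 CpG. RefSeq windows were matched for 62 of the 242 antisense genes (71 windows), of which 11.3% held TATAAA, 32.4% CCAAT and 47.9% GGGCGG, with a median of 19 CpG. Of the 11 divergent windows, 7 held CCAAT and the median was 29 CpG.

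Most of the antisense genes were only moderately abundant. A mean of at least 5 FPKM was reached by 62 of the 242, of at least 10 FPKM by 19 and of at least 100 FPKM by 2. In reads, the median antisense gene had 58.1 per library (range 5.83 to 2285), against a median of 826 for the tested partners. At the level that chose them, AL355488.1 (2.01 FPKM) and AP002449.1 (2.01 FPKM) were just inside, and BBOX1-AS1 (2.00 FPKM, unrounded just under 2) and AC104667.2 (1.98 FPKM) just outside.

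AL355075.4 had the highest mean, 160 FPKM. It occupies chr14:20343048-20343685 on the minus strand, and its 638 exon bases include the whole of RPPH1, which encodes the RNA component of RNase P, the enzyme that trims tRNA precursors. RPPH1 was listed at 0 in all 6 libraries, and the reads of AL355075.4 came from the 201 of its 638 bases that no other gene shares. AC005288.1 was next with 147 FPKM. It lies on chromosome 17 with 87.7% of its exon bases in introns of MED1, a subunit of the Mediator complex, which had a mean of 136 FPKM. In both genes the highest library was shS1#1 replicate 2, at 189 FPKM for AC005288.1 and 187 FPKM for MED1.

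AL513165.1 (30.2 FPKM), FGD5-AS1 (29.2 FPKM), AC136475.3 (27.9 FPKM), AC006329.1 (25.1 FPKM) and AFAP1-AS1 (20.8 FPKM) followed. HOXB-AS3 and AC099850.3 each had a mean of 19.0 FPKM and RHOXF1-AS1 one of 17.6 FPKM. AC136475.3 was at 24.6, 27.3 and 27.9 FPKM in shCtrl and at 35.0, 16.2 and 36.7 FPKM in shS1#1, and it was called higher when shS1#1 replicate 2 was left out (log2 fold change 0.43, limma adjusted p = 0.00671). Antisense genes were below their partner in 159 of the 205 pairs, with a median of 36.8% of the partner's FPKM. Over the pairs, the level of the antisense gene was almost unrelated to that of the partner (Spearman's rho 0.11, across pairs, as a description).

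Knockdown of SCAMP1 was accompanied by changes in both directions. By limma with Benjamini-Hochberg adjustment over 15556 genes, 14 of the 242 antisense genes were higher in shS1#1 cells, beside 8.82% of all genes tested, and 15 were lower, beside 5.17%. In either direction this came to 29 (11.98%) beside 14.0%, a share near that of all genes. Of the called antisense genes, 6 were also past 2-fold (2.48% of the 242), beside 3.16% of all genes called and past 2-fold. Of the antisense genes, 78 (32.2%) had no overlap between the groups, beside 41.4% of all genes. All 242 passed the filter on low values. The mean fell below 2 FPKM in 1 group for 46 of them, of which 5 were higher and 3 lower, and the 196 with both means at 2 FPKM or more gave 9 higher and 12 lower.

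The counts depend on single libraries. Without shS1#1 replicate 2, 52 antisense genes were called, among them all 29, while 27.8% of all genes were. Leaving out a shCtrl library gave 10 to 12 antisense genes and 5.19% to 5.52% of all genes, and without shS1#1 replicate 3 it was 19 and 6.62%. Scaling by read totals split the calls into 12 higher and 20 lower, and voom on recovered reads into 9 and 20. In the fits without 1 library the number higher ranged from 5 to 22 and the number lower from 4 to 30. Of the 29 antisense genes, 9 were called in all 6 of these fits and in all 10 other alternatives, namely OVOL1-AS1, AC067930.5, AC027117.2, HOXB-AS3, ELF3-AS1, VPS9D1-AS1, AC068888.1, MGC32805 and AATBC. The other 20 lost the call without at least 1 library. AL355075.4 kept it in 4 of the 6 fits (limma adjusted p up to 0.0591), AP000785.1 in 3 (up to 0.0613), KRT7-AS in 3 (up to 0.0604), and AL109615.3 and SLC25A25-AS1 in 2 each (up to 0.102 and 0.124). Genes below 2-fold that are described here and are not among the 10 most abundant or on the list of well known antisense genes, with their partners, were picked once the values were known.

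**Figure D2:**
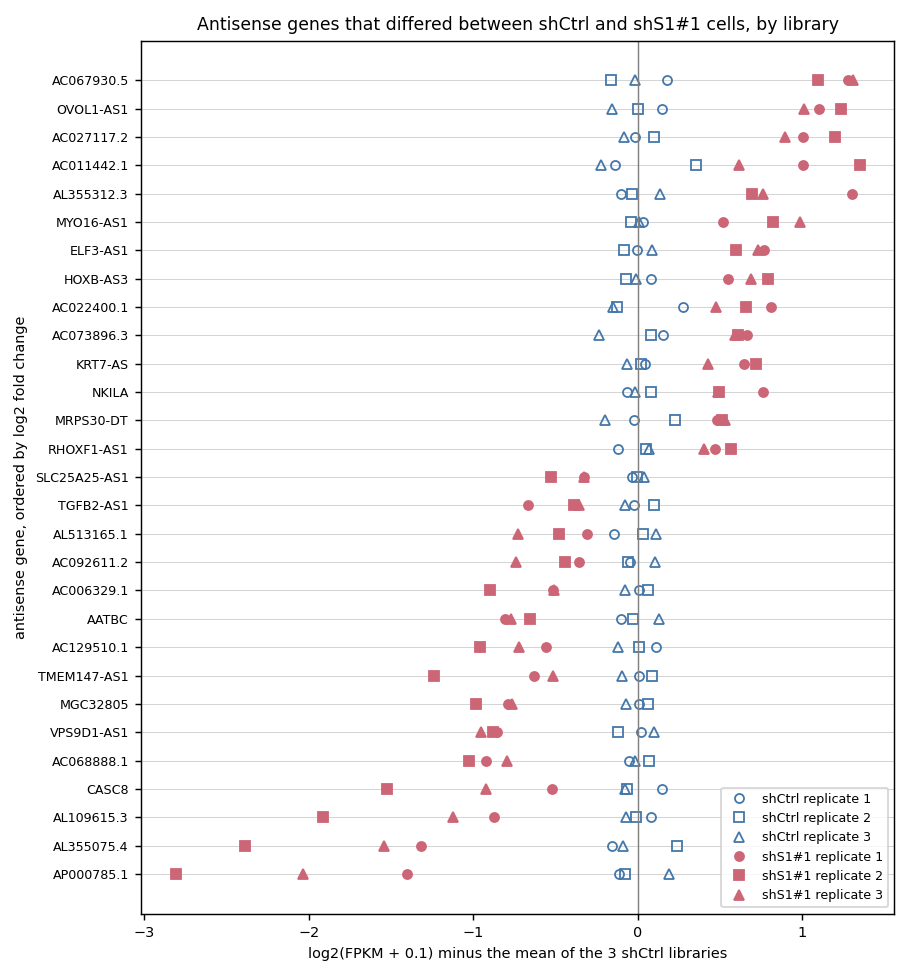
The 29 antisense genes called by limma, with log2(FPKM + 0.1) in each of the 6 libraries relative to the shCtrl mean (horizontal axis). Open blue symbols are shCtrl and filled red symbols shS1#1 libraries. The groups did not overlap for any of the 29, and shS1#1 replicate 2 was the lowest library of AP000785.1, AL355075.4, AL109615.3, CASC8 and TMEM147-AS1.

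Taken over the whole set, the antisense genes lay slightly lower in shS1#1 cells. The median log2 fold change was −0.10, against −0.02 for all genes tested and 0.02 for antisense genes tested under 2 FPKM. Below 0 were 148 of the 242 (61.2%), beside 52.4% of all genes and 49.3% of antisense genes tested under 2 FPKM. Without shS1#1 replicate 2 the median was −0.05 and 136 were below 0, and with scaling by read totals the median was −0.18, against −0.09 for all genes, and 157 were below 0. The libraries of shS1#1 differed among themselves, with a median difference from the shCtrl mean of −0.05, −0.21 and −0.09 for replicates 1, 2 and 3, while the median of all genes stayed between −0.012 and −0.005. Reads on the 242 genes made up 0.237%, 0.244% and 0.237% of all reads in shCtrl and 0.211%, 0.185% and 0.208% in shS1#1. The total without AL355075.4, the most abundant of them, was 33905, 35922 and 33447 reads in shCtrl and 30062, 26115 and 29735 in shS1#1. The lowest share belonged to the library with the raised mitochondrial share, and the part of that share in the result was not tested. In bulk RNA, fewer cells with a transcript and less of it per cell cannot be told apart.

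The share of called antisense genes did not rise steadily with their reads. With 100 to 200 reads per library 8 of 36 (22.2%) were called and with 200 or more 8 of 35 (22.9%), compared with 15.7% and 17.6% of protein-coding genes of the same depth. Between 25 and 100 reads the shares were 5.77% (25 to 50 reads) and 5.88% (50 to 100 reads), compared with 12.5% and 13.5% of protein-coding genes. Below 25 reads 6 of 51 (11.8%) were called, compared with 7.44% of protein-coding genes. The difference between the antisense and protein-coding genes was not tested.

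**Figure D3:**
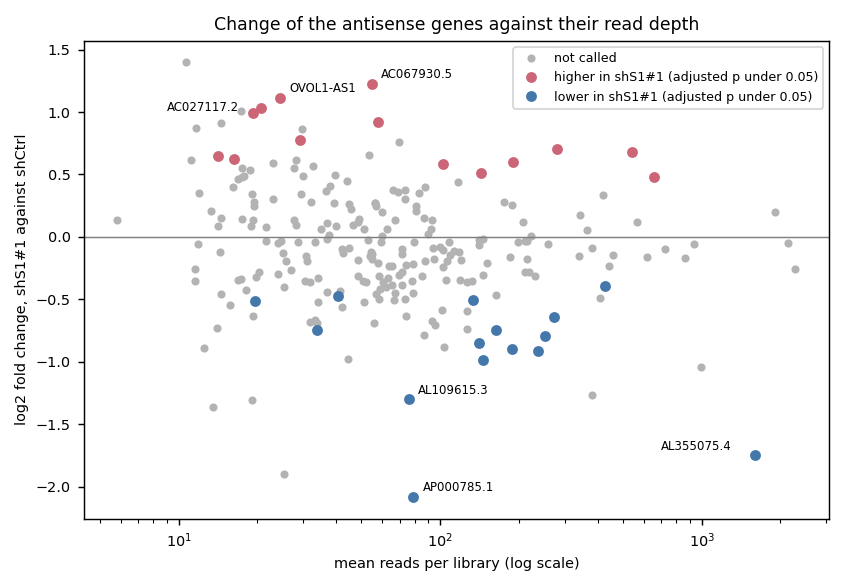
Log2 fold change of each of the 242 antisense genes (vertical axis) against its mean reads per library (horizontal axis, log scale). Coloured points were called by limma, and the 6 labelled ones were past 2-fold. AL355075.4 is the one labelled gene with more than 200 reads.

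AP000785.1 showed the lowest log2 fold change of the 242. It lies on chr11:76190725-76195071 (plus strand), within WNT11, which encodes a Wnt ligand of the non-canonical type. AP000785.1 was at 12.1, 12.4 and 14.995 FPKM in shCtrl and at 4.91, 1.79 and 3.12 FPKM in shS1#1 libraries (log2 fold change −2.08 ± 0.34 SE, limma adjusted p = 0.0120). WNT11 was at 133, 129 and 135 FPKM in shCtrl and at 35.0, 27.5 and 35.4 FPKM in shS1#1 (log2 fold change −2.02). Both genes thus fell without overlap of the groups, and the log2 ratio of antisense to sense moved by −0.06 (95% interval −0.83 to 0.71). The exon bases of AP000785.1 lie in WNT11 exons for 33.3% and in its introns for 66.7%, so that every read counted for it fell in a WNT11 intron.

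AL355075.4 fell next most among the genes past 2-fold. Its libraries were at 218, 287 and 228 FPKM in shCtrl and at 97.1, 46.3 and 83.3 FPKM in shS1#1 (log2 fold change −1.75 ± 0.28 SE, limma adjusted p = 0.0118), which is 2204 to 3047 against 404 to 905 reads. PARP2, a poly(ADP-ribose) polymerase of DNA repair, starts 103 bases from it on the other strand. PARP2 was at 4.67, 4.13 and 4.68 FPKM in shCtrl and at 4.30, 2.78 and 4.51 FPKM in shS1#1, with overlap between the groups (log2 fold change −0.24, limma adjusted p = 0.427). Of the 205 pairs, this was the single one with a called difference of the log2 ratio, −1.51 (95% interval −1.99 to −1.03, limma adjusted p = 0.0467), beside 0.376% of the 797 antisense and sense pairs of the whole table. Leaving out any 1 of the 6 libraries ended that call. At an unadjusted p under 0.05 there were 26 such pairs.

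AL109615.3, which entered the set through its shCtrl level (shS1#1 mean under 2 FPKM), completes the genes that fell past 2-fold. It was at 3.21, 3.01 and 2.88 FPKM in shCtrl and at 1.61, 0.732 and 1.34 FPKM in shS1#1 (log2 fold change −1.30, limma adjusted p = 0.0259). C6orf223, an uncharacterised coding gene inside it, fell from 7.58, 7.66 and 8.23 to 3.79, 3.84 and 3.63 FPKM (log2 fold change −1.04). None of the exon bases of AL109615.3 lie in C6orf223 introns, and 88.5% lie outside that gene.

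OVOL1-AS1, AC067930.5 and AC027117.2, which entered the set through their shS1#1 level (shCtrl mean under 2 FPKM), were higher past 2-fold. The first lies in an intron of OVOL1, a zinc finger transcription factor of epithelial differentiation, and was at 1.66, 1.49 and 1.32 FPKM in shCtrl and at 3.30, 3.63 and 3.09 FPKM in shS1#1 (log2 fold change 1.12 ± 0.12 SE, limma adjusted p = 0.00267). OVOL1 itself rose from 6.33, 7.25 and 7.08 to 11.7, 13.2 and 12.7 FPKM (log2 fold change 0.85). All exon bases of OVOL1-AS1 are in OVOL1 introns, and it had 14 to 34 reads per library.

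AC067930.5 runs tail-to-tail into NAPRT, which makes NAD from nicotinic acid. It was at 2.10, 1.64 and 1.82 FPKM in shCtrl and at 4.61, 4.05 and 4.72 FPKM in shS1#1 (log2 fold change 1.23, limma adjusted p = 0.00192). NAPRT rose from 37.4, 36.8 and 38.9 to 62.4, 56.5 and 61.6 FPKM (log2 fold change 0.67). Here 72.9% of the antisense exon bases lie in NAPRT exons and 0% in its introns, so the reads counted came from beyond the partner.

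AC027117.2 overlaps no protein-coding gene on the other strand, and starts 428 bases from MTUS1, a gene for a microtubule-associated protein. It was at 1.73, 1.88 and 1.65 FPKM in shCtrl and at 3.62, 4.15 and 3.35 FPKM in shS1#1 (log2 fold change 1.03, limma adjusted p = 0.00279). MTUS1 was at 6.86, 6.62 and 6.13 FPKM against 8.40, 14.0 and 10.1 FPKM, without overlap (log2 fold change 0.69, limma adjusted p = 0.0560).

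**Figure D4:**
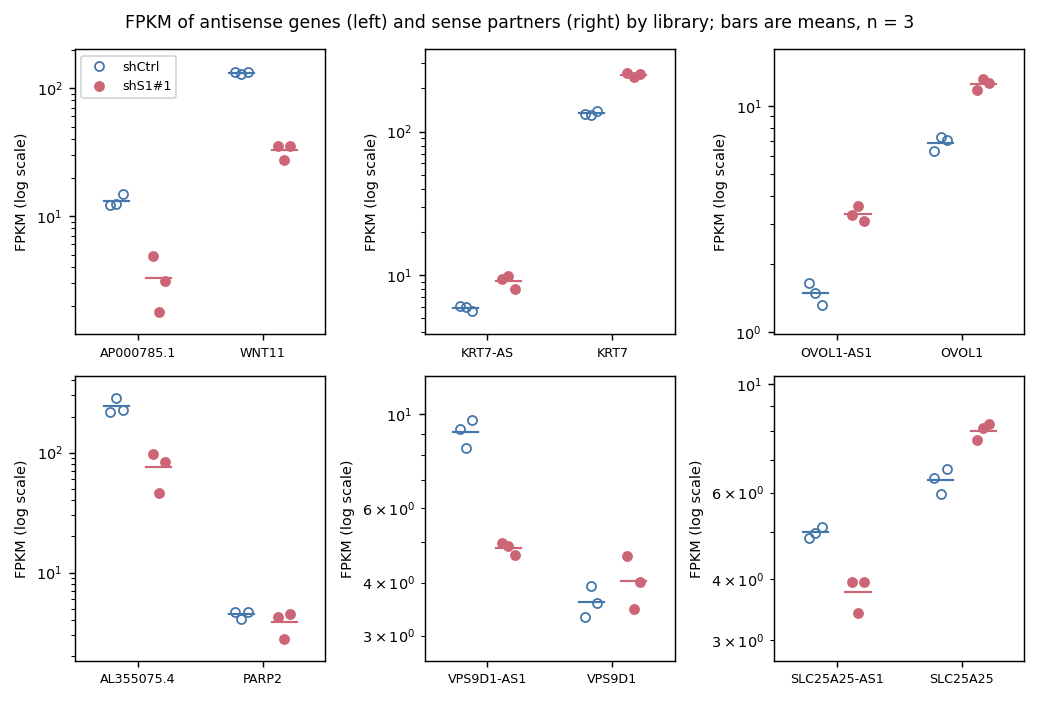
FPKM (vertical axes, log scale) of 6 antisense genes and their sense partners in each library, with horizontal bars for the mean of 3 libraries. AP000785.1 fell with WNT11, KRT7-AS and OVOL1-AS1 rose with KRT7 and OVOL1, AL355075.4 and VPS9D1-AS1 fell beside partners whose groups overlapped, and SLC25A25-AS1 fell while SLC25A25 rose.

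The sense partners, all protein-coding, changed in both directions. Of 199 partners, 27 were higher and 13 lower (20.1% in all, beside 14.0% of all genes, 16.7% of protein-coding genes and 17.6% of protein-coding genes with at least 200 reads), and 6 of them were past 2-fold. GLIPR1 (log2 fold change 1.03), ZSWIM4 (1.01) and ANGPTL4 (1.00) were the higher ones of these 6, and WNT11 (−2.02), GJD3 (−1.09) and C6orf223 (−1.04) the lower ones. Without shS1#1 replicate 2 there were 46 partners higher and 28 lower, without shS1#1 replicate 3 there were 16 and 7, and without a shCtrl library 12 to 14 and 4. Scaling by read totals gave 24 higher and 19 lower. The partners hold more reads than the antisense genes, and a difference between both sets was not tested.

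Antisense genes and partners tended to lie on the same side of 0. The log2 fold changes had the same sign in 136 of the 205 pairs (66.3%), beside 59.1% of the 797 pairs of the whole table, with Spearman's rho of 0.48 and Pearson's r of 0.54 across pairs, given as a description because both members come from the same libraries. By arrangement, rho was 0.51 for antisense genes inside the partner, 0.32 head-to-head, 0.52 tail-to-tail and 0.77 for the 14 pairs with the partner inside the antisense gene. In the 32 pairs with no countable antisense base in a partner intron rho was 0.53, and in the 92 with all countable bases there it was 0.51. This split looks at 1 partner at a time. An antisense gene of the 32 pairs can thus lie in introns of another gene, as HOXB-AS3 paired with HOXB5 does. The part of intron reads in these values was not tested. Both members were called in 12 pairs, the antisense gene alone in 11, the partner alone in 29 and neither in 153. Over the 797 pairs of the whole table these numbers were 20, 20, 109 and 648.

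**Figure D5:**
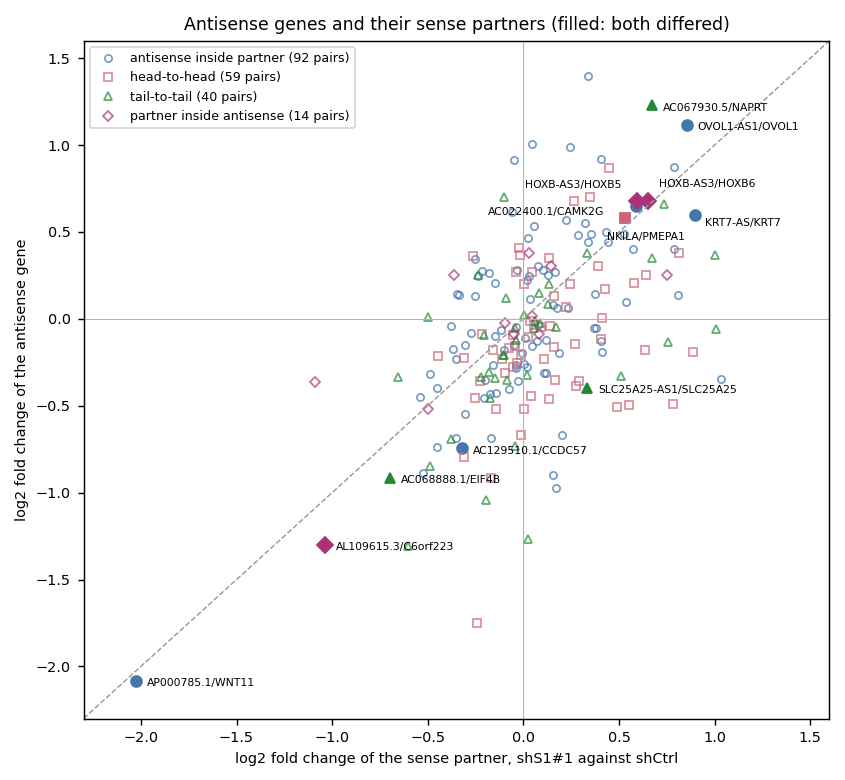
Log2 fold change of the antisense gene (vertical axis) against that of its sense partner (horizontal axis) for the 205 tested pairs, with symbols by arrangement, filled where limma called both. The dashed line marks equal change. Of the 12 filled pairs, 11 lie in the quadrants of equal sign, and SLC25A25-AS1 with SLC25A25 does not.

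Of the 12 pairs with both members called, 11 moved in the same direction, beside 19 of 20 in the whole table. KRT7-AS lies inside KRT7, a keratin of simple epithelia, and rose from 6.11, 6.03 and 5.66 to 9.34, 9.84 and 7.99 FPKM (log2 fold change 0.60, limma adjusted p = 0.0115). KRT7 rose from 132, 131 and 139 to 258, 241 and 250 FPKM (log2 fold change 0.90). The log2 ratio of antisense to sense moved by −0.30, with an interval from −0.88 to 0.28 that includes 0. Introns of KRT7 hold 83.3% of the exon bases of KRT7-AS, and its exons the rest.

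HOXB-AS3 is spread over the HOXB cluster, whose coding genes are homeobox transcription factors. It was at 15.4, 13.9 and 14.5 FPKM in shCtrl and at 21.4, 25.4 and 23.5 FPKM in shS1#1 (log2 fold change 0.68 ± 0.09 SE, limma adjusted p = 0.00511). HOXB5 rose from 11.3, 11.4 and 12.7 to 18.9, 16.4 and 18.3 FPKM and HOXB6 from 17.1, 15.5 and 18.4 to 27.8, 24.1 and 28.3 FPKM (log2 fold changes 0.59 and 0.65). HOXB3 (log2 fold change 0.26, limma adjusted p = 0.213) and HOXB4 (0.66, limma adjusted p = 0.205), the other overlapping genes of the cluster, were not called, but without shS1#1 replicate 2 HOXB3 was (log2 fold change 0.37, limma adjusted p = 0.0377). No exon base of HOXB-AS3 lies in a HOXB5 intron, but 46.3% lie in HOXB6 introns and 81.2% in those of HOXB3, so its reads cannot be assigned to 1 transcript with certainty. HOXB-AS4 showed another pattern. It was at 7.64, 8.70 and 8.52 FPKM in shCtrl and at 4.81, 8.74 and 4.70 FPKM in shS1#1 (log2 fold change −0.50, limma adjusted p = 0.217), while its partner HOXB7 rose (log2 fold change 0.55, limma adjusted p = 0.0224).

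NKILA, named for its interaction with NF-kappaB, and PMEPA1, a membrane protein that dampens TGF-beta signalling, have RefSeq starts on the third window printed above. NKILA was at 1.99, 2.22 and 2.07 FPKM in shCtrl and at 3.61, 2.98 and 2.97 FPKM in shS1#1 (log2 fold change 0.58, limma adjusted p = 0.0192). Introns of PMEPA1 hold 38.9% of the exon bases of NKILA. PMEPA1 was at 68.1, 72.3 and 71.9 FPKM against 94.6, 115 and 98.6 FPKM (log2 fold change 0.53, limma adjusted p = 0.0140). AC022400.1 rose with CAMK2G, a subunit of a calcium and calmodulin dependent kinase (log2 fold changes 0.65 and 0.59), on only 10 to 19 reads per library. 

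Of the pairs that fell together, AC068888.1 with EIF4B was the most deeply read. Per library, 308 to 354 reads of AC068888.1 were counted for shCtrl and 132 to 167 for shS1#1, or 3.47, 3.78 and 3.55 against 1.85, 1.72 and 2.03 FPKM (log2 fold change −0.91, limma adjusted p = 0.00262). EIF4B, a translation initiation factor, fell from 83.5, 82.5 and 86.7 to 51.7, 51.2 and 53.0 FPKM (log2 fold change −0.70). The same antisense gene overlaps TNS2 head-to-head, a tensin of focal adhesions, which was not called (log2 fold change −0.17). AC129510.1 fell with CCDC57 (log2 fold changes −0.74 and −0.32).

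SLC25A25-AS1 and SLC25A25 were the single pair called in opposite directions. SLC25A25 encodes a mitochondrial carrier that exchanges ATP-Mg for phosphate. SLC25A25-AS1 fell from 4.86, 4.97 and 5.11 to 3.94, 3.42 and 3.95 FPKM (log2 fold change −0.40, limma adjusted p = 0.0298), and SLC25A25 rose from 6.43, 5.96 and 6.70 to 7.68, 8.14 and 8.27 FPKM (log2 fold change 0.33, limma adjusted p = 0.0343). The groups did not overlap for either gene, and no exon base of the antisense gene lies in an intron of the partner. SLC25A25 kept its call in only 1 of the 6 fits without 1 library (limma adjusted p up to 0.142). Of the 10 other alternatives, 4 called SLC25A25 and 8 called SLC25A25-AS1. The log2 ratio moved by −0.73 (95% interval −1.20 to −0.26), which did not pass adjustment over all pairs (limma adjusted p = 0.237).

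In 11 pairs a called antisense gene lay beside a partner that was not called. VPS9D1-AS1, inside VPS9D1, fell from 9.21, 8.32 and 9.71 to 4.96, 4.88 and 4.64 FPKM (log2 fold change −0.90 ± 0.08 SE, limma adjusted p = 0.00161). VPS9D1 was at 3.31, 3.92 and 3.59 FPKM in shCtrl and at 4.63, 3.47 and 4.01 FPKM in shS1#1, with overlap. This antisense gene stood above its partner in all 6 libraries, and its exon bases are in VPS9D1 introns for 70.5%. The log2 ratio moved by −1.05 (95% interval −1.54 to −0.56, limma adjusted p = 0.180).

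ELF3-AS1 starts beside a RefSeq start of ELF3, an epithelial ETS transcription factor, on the first window printed above. It was at 2.51, 2.38 and 2.69 FPKM in shCtrl and at 4.38, 3.87 and 4.26 FPKM in shS1#1 (log2 fold change 0.70, limma adjusted p = 0.00524). ELF3 was at 29.4, 29.7 and 30.01 FPKM in shCtrl and at 42.7, 29.7 and 42.5 FPKM in shS1#1, so that replicate 2 lay among the controls (log2 fold change 0.35, limma adjusted p = 0.174). Without that library ELF3 was called higher (log2 fold change 0.52, limma adjusted p = 0.000392). None of its exon bases lie in ELF3 introns, although 76.7% lie in introns of RNPEP, a peptidase gene on its other side, whose log2 fold change was −0.10.

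The remaining antisense genes called without their partner were MGC32805 (log2 fold change −0.85) beside SNCAIP, TMEM147-AS1 (−0.79) beside TMEM147, AL355312.3 (0.92) beside LRP11 and AC011442.1 (0.99) beside SMARCA4, the ATPase of the SWI/SNF chromatin remodelling complex. AC011442.1 lies entirely in SMARCA4 introns and had 11 to 30 reads. Without shS1#1 replicate 2, SNCAIP was called lower (log2 fold change −0.70, limma adjusted p = 0.0491). A p that misses the threshold does not show that a partner kept its level, and of these pairs only that of AL355075.4 had a called difference of the ratio.

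In 29 pairs the partner alone was called. AC121761.1 lies in introns of GLIPR1, a member of the CAP protein family, and came nearest to a called ratio. AC121761.1 was at 6.04, 6.40 and 5.33 FPKM in shCtrl and at 4.11, 5.08 and 4.75 FPKM in shS1#1 (log2 fold change −0.35, limma adjusted p = 0.0912). GLIPR1 rose from 3.72, 3.64 and 4.004 to 7.70, 8.09 and 7.73 FPKM, and the log2 ratio moved by −1.38 (95% interval −1.86 to −0.89, limma adjusted p = 0.0530). All exon bases of AC121761.1 lie in GLIPR1 introns, and its groups did not overlap but lay in the opposite order to those of GLIPR1.

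SPINT1, an inhibitor of the proteases that activate hepatocyte growth factor, rose (log2 fold change 0.88) while SPINT1-AS1 was at 5.60, 5.57 and 6.32 against 7.79, 3.18 and 5.30 FPKM. SLC39A4, a zinc importer, rose (log2 fold change 0.76) beside AC233992.3 at 7.15, 7.05 and 9.34 against 7.48, 6.48 and 7.33 FPKM. BCL2L1, which encodes the anti-apoptotic protein BCL-X, rose (log2 fold change 0.79) beside ABALON at 2.32, 2.71 and 2.86 against 3.31, 3.84 and 3.34 FPKM, where the groups did not overlap (limma adjusted p = 0.0647). The ratio was called in none of these 3 pairs (limma adjusted p of 0.290, 0.180 and 0.623).

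No protein-coding gene on the other strand overlaps 41 of the antisense genes, and 7 of these (17.1%, beside 14.0% of all genes) were called, 2 higher and 5 lower. AATBC fell from 2.55, 2.70 and 3.01 to 1.53, 1.71 and 1.57 FPKM (log2 fold change −0.74, limma adjusted p = 0.00777). AC006329.1 fell from 30.8, 31.9 and 29.01 to 21.4, 16.4 and 21.4 FPKM (log2 fold change −0.64) and AL513165.1 from 31.9, 36.1 and 38.1 to 28.4, 25.3 and 21.3 FPKM (log2 fold change −0.50), both among the 10 most abundant of the 242. The nearest coding starts on the other strand to these 3 are over 10 kb away, and the genes there, RRP1, IFT22 and ZBTB5, were not called.

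Of the 21 non-overlapping antisense genes with an opposite-strand coding start within 1 kb, 76.2% were below 0, beside 61.2% of the 242. Of their coding neighbours 38.1% were below 0, beside 52.3% of protein-coding genes tested, and the difference was not tested. Calls were made for 3 of these antisense genes (14.3%) and 2 of the neighbours (9.52%), beside 14.0% of all genes. TGFB2-AS1 fell (log2 fold change −0.47, limma adjusted p = 0.0374) beside TGFB2, a ligand of the TGF-beta family, at 5.33, 5.53 and 5.45 against 3.42, 5.77 and 4.72 FPKM. MRPS30-DT rose (log2 fold change 0.51, limma adjusted p = 0.0374) from 3.45, 4.13 and 3.04 to 4.95, 5.05 and 5.13 FPKM. MRPS30, a mitochondrial ribosomal protein that starts on the second window printed above and runs the other way, was at 13.9, 13.8 and 13.3 against 12.5, 14.98 and 12.8 FPKM. Of the neighbours, 2 rose beside antisense genes that were not called, namely ZMPSTE24, the protease that processes prelamin A (log2 fold change 0.53), beside AL050341.2, and ENPP4 (log2 fold change 0.85) beside AL035701.1.

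Of a list of 30 well known antisense transcripts, 21 were in the table as antisense genes and 7 were among the 242. The list does not hold every antisense transcript with a described role, and leaves out NKILA, for example. Of the 7, 0 were called by limma, beside 14.0% of all genes, and 3 had an unadjusted limma p under 0.05, beside 30.7%. Of these 7 genes, 6 were below 0 and the median log2 fold change was −0.23. FGD5-AS1 was at 31.3, 33.2 and 30.9 FPKM in shCtrl and at 28.4, 23.4 and 28.1 FPKM in shS1#1, without overlap (limma adjusted p = 0.120). AFAP1-AS1, which is often abundant in carcinomas, was at 21.3, 20.02 and 21.3 against 16.6, 27.4 and 17.9 FPKM. Without shS1#1 replicate 2, FGD5-AS1 and AFAP1-AS1 were called lower (limma adjusted p of 0.0377 and 0.0150), and voom called 0 of the 7. ZFAS1, a host of small nucleolar RNAs, was at 14.9, 12.4 and 14.0 against 12.4, 7.13 and 10.4 FPKM (log2 fold change −0.49, limma adjusted p = 0.161). Its head-to-head partner ZNFX1, a helicase of the antiviral response, rose from 11.8, 11.3 and 12.04 to 17.2, 25.8 and 18.6 FPKM, and the log2 ratio moved by −1.27 (95% interval −2.13 to −0.42, limma adjusted p = 0.249).

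SNHG12 and SNHG7, which also host small nucleolar RNAs, had among the lowest fold changes that were not called. SNHG12 was at 7.51, 8.30 and 7.34 FPKM against 5.49, 1.22 and 4.57 FPKM and SNHG7 at 18.9, 18.5 and 20.3 against 13.8, 4.41 and 13.1 FPKM (log2 fold changes −1.27 and −1.04, limma adjusted p of 0.165 and 0.156). In SNHG12, SNHG7 and ZFAS1 the groups did not overlap, and shS1#1 replicate 2, the library with the raised mitochondrial share, was the lowest. The part of that library's composition in these values was not tested. LINC00659 had the lowest uncalled log2 fold change, −1.90, at 3.97, 5.00 and 4.68 against 0.888, 0.541 and 2.91 FPKM (limma adjusted p = 0.0665).

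The other called antisense genes have partners too low for a test. CASC8 fell (log2 fold change −0.99, limma adjusted p = 0.0468), while RHOXF1-AS1 (log2 fold change 0.48), MYO16-AS1 (0.78) and AC073896.3 (0.62) rose. RHOXF1-AS1 was the deepest of these, at 13.5, 15.2 and 15.4 FPKM in shCtrl and 20.3, 21.8 and 19.4 FPKM in shS1#1. AC092611.2, which has no overlapping coding gene on the other strand, fell on 13 to 25 reads per library (log2 fold change −0.51).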

How the data were processed

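RNA-seq of NCI-N87 cells was available for 3 shCtrl and 3 shS1#1 libraries. The table the authors deposited gives FPKM for each gene in each library, and its columns for coordinates, strand, gene length in bases and biotype were also used. The submitters' processing notes name HISAT2 2.0.5, featureCounts 1.5.0-p3, DESeq2 1.20.0 and hg38. The strand setting is not given in the sources used here and was read from the values. Every gene length equalled the exon union of GENCODE 29 on GRCh38 (58735 of 58735), which was used for exons and overlaps of at least 1 base. Reads per gene were recovered by dividing FPKM times length by the value of 1 read in the library, and 100% of the values above 0 came out whole within 0.05 reads. Genes with few reads are the least precise. There were 0 unused columns with values per sample.

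Values were tested as log2(FPKM + 0.1), a scale that understates the fold changes of low genes. The test was limma 3.58.1 (R 4.3.3; lmFit, then eBayes with its trend option), applied to the 15556 genes whose mean reached 0.5 FPKM. The log2 ratio of antisense to sense was tested in the same way over 797 pairs. A gene was called at an adjusted p under 0.05 (Benjamini-Hochberg), and counted as past 2-fold if it was called and its absolute log2 fold change was above 1. Tables and figures used Python 3.11.15 with pandas 2.3.3, numpy 2.4.6 and matplotlib 3.10.9, and the steps were tested on simulated data. An exact test of 3 against 3 libraries cannot go below p = 0.10 and was not used. Promoter windows are those of RefSeq (GRCh38.p14).

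Genes named by rule are SCAMP1, the 10 antisense genes with the highest mean, those past 2-fold, those with a called ratio, the genes nearest the level of 2 FPKM, a list of well known antisense genes and the partners of all these. The antisense genes, lists and tests were chosen with earlier results of these data known. Alternatives were another pseudocount, filter or scaling, no trend, voom on the recovered reads, the replicate number as a block, another level for choosing the genes, and leaving out each library. Scaling by read totals was added after seeing the data. Cells with shS1#2 and other assays of the study were not analysed here.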

Additional observations from a re-analysis of the deposited data

How the results depend on the processing

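Of the 72 named genes besides SCAMP1, none called as reported changed sign under the alternatives run, while 9 genes that were not called did so in 24 values, none of them called. Over all values of the 72 genes, 967 kept their direction and their side of the threshold, 151 lost the call and 6 gained one. Without 1 library, the log2 fold changes of these 9 ranged from −0.156 to 0.431 for AC136475.3, −0.0377 to 0.245 for AC099850.3, −0.274 to 0.0854 for AFAP1-AS1, −0.161 to 0.0603 for AFAP1, −0.0692 to 0.257 for MED1, −0.00726 to 0.0895 for FOXP4, −0.110 to 0.0384 for NR2C2, −0.149 to 0.0149 for PSMA3 and −0.0324 to 0.219 for THAP9. With voom, scaling by read totals and that scaling without mitochondrial genes, AC136475.3 was at −0.0210, −0.0235 and −0.0157, AC099850.3 at −0.0113, −0.0124 and −0.00452, and FOXP4 at −0.0366, −0.0363 and −0.0285. The count of antisense genes past 2-fold (6) became 2 with a pseudocount of 1 FPKM, 11 with a minimum mean of 1 FPKM, 2 with one of 5 FPKM, and 2 to 11 without 1 library (11 and 9 without shS1#1 replicates 1 and 3, and 4, 3 and 2 without shCtrl replicates 1, 2 and 3). The number higher (14) became 9 with voom on recovered reads (20 lower), 22 and 4 with minimum means of 1 and 5 FPKM, and 5 to 22 without 1 library. The number lower (15) became 8 without a filter on low values, 5 with a minimum mean of 5 FPKM, and 4 to 30 without 1 library. Scaling by read totals gave 12 higher and 20 lower and moved the median of all genes to −0.09. Partners higher (27) became 12 to 46 without 1 library, and partners lower (13) became 20 with voom, 20 with scaling by reads without mitochondrial genes, and 4 to 28 without 1 library. The pairs with a called ratio (1) became 4 with a pseudocount of 1 FPKM, 2 with a filter at 1 FPKM, and 0 with a pseudocount of 0.01 FPKM, no filter, no trend or without any 1 library.

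With the replicate number as a block, 18 antisense genes were called, 16 of them shared, with 8 lower, and 15 partners were higher, 4 lower and 0 ratios called. Deviations of libraries with the same number correlated at −0.04, 0.03 and 0.07, so no shift shared by number was seen. With 3 libraries per group this cannot show whether libraries of the same number were handled together. The causes of these changes were not tested, except that removing a library or adding a block leaves fewer residual degrees of freedom. Depth limits the 51 antisense genes with under 25 reads per library most.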

Other observations

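Antisense genes below 2 FPKM on average were also tested. Of 694, 13 were higher and 7 lower in shS1#1 cells by limma (2.88%, beside 14.0% of all genes). Past 2-fold were 14 of these (2.02% of the 694, beside 3.16% of all genes), all on a mean of 3.83 to 31.7 reads per library. Some lay beside partners that also rose. AC118754.1 was at 1.02, 0.324 and 0.175 FPKM in shCtrl and at 2.04, 1.58 and 2.77 FPKM in shS1#1 (log2 fold change 2.10), and its head-to-head partner SPNS2, a sphingosine-1-phosphate exporter, had a log2 fold change of 2.15. AC025154.2 was at 0.401, 0.572 and 0.370 against 1.83, 1.21 and 1.61 FPKM (log2 fold change 1.59), beside AQP5, a water channel, with a log2 fold change of 2.01. AC025917.1 (1.59) lay beside FAM214A (1.44) and AC012645.2 (1.29) beside GDPD3 (1.04). Others rose beside partners with smaller log2 fold changes, AC009318.3 (1.90) beside FAR2 (0.27), XXYLT1-AS2 (1.40) beside XXYLT1 (−0.20) and FLJ31356 (1.36) beside FOSL2 (0.46).

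In the other direction, AC091153.3 fell from 0.802, 0.763 and 1.10 to 0.145, 0.155 and 0.145 FPKM beside PELP1 (log2 fold change −0.12), and MAST4-AS1 fell from 0.893, 0.772 and 1.08 to 0.264, 0.376 and 0.176 FPKM beside MAST4 (0.39). Both log2 ratios were called (−1.86 and −1.87, limma adjusted p = 0.0467), on 3.83 and 7.17 reads per library on average. These genes were chosen after their values were seen.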
